A study of Mus musculus with 8 samples.

Results

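The cytosines described here are the listed sites that lie in no annotated gene, leaving out a window of chromosome 6 in which such sites are dense. They were chosen by position alone: a site is a member if it falls in no gene span of the RefSeq annotation of GRCm38 patch 6 and outside that window. Of 8492 listed sites, 993 (11.7%) met this rule, in 35 of the 259 stretches formed by joining sites up to 500 bases apart. A stretch is called near its nearest gene whatever the distance, which ran from 101 to 136362 bases with a median of 12095. Bisulfite sequencing of poly(A) RNA gave the levels, in mast cells grown from the bone marrow of C57BL/6 mice with IL-3 and SCF, positive for FcεRI and c-Kit per the labels. The labels give 4 wild-type libraries and 4 libraries of genotype Tet2-/-, each genotype with 2 biological replicates that were run in 2 technical replicates. The sources used here do not give the Tet2 allele, the age of the mice or whether animals were pooled. Per its header, the deposited table was limited by the authors to cytosines specific for Tet2 deficiency, by a rule not given here, and it holds levels of the 4 Tet2-/- libraries alone, so every value below describes Tet2-/- cells and no value is a difference between genotypes. The lowest listed level was 10%, and cytosines below it are not seen. Read numbers were not analysed here, so the depth behind a level is unknown. A level shared by all cells and a mixture of cells with high and low levels cannot be told apart in bulk RNA.

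5-Methylcytosine in RNA is laid down by enzymes such as the NSUN family and DNMT2 (Trdmt1). Tet2 belongs to the TET family of dioxygenases, which oxidise 5-methylcytosine, and loss of Tet2 is known for its effects on blood cell development. Bisulfite turns unmodified cytosine into uracil, so a level is the fraction of reads with cytosine retained at a position, and unmodified cytosine that escaped conversion counts in it too. Poly(A) RNA from outside annotated genes can come from transcripts that run past an annotated end or from transcripts that the annotation lacks.

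The letters at the member positions were not used here, because no genome sequence of the build was at hand. What the table does give is the spacing of the cytosines, which can be laid over sequences that are at hand. The spacing of each of the 23 stretches of 10 or more sites was slid without gaps, on both strands, along 32851 RefSeq promoter windows of GRCm38 patch 6, each running from 250 bases before to 50 bases after a gene start. A match was at least 15 coinciding cytosines over at least 60 bases that made up 60% or more of all positions holding a cytosine of the window, a listed site or both. Of 755573 stretch and window comparisons 8 (0.00106%) matched, for 5 of the 23 stretches. Stretches of fewer than 15 sites are counted in these totals but could not match. The best match of 4 of these stretches is printed, because these windows show which letters stood at the same spacing; the sequences are those of the windows, not of the member sites. Capitals mark cytosines that coincided with listed sites, and each is printed 5′ to 3′ on the strand on which those positions are cytosine.
Gm36789 window, chr14:57000913-57001212, minus strand, against the 94-site stretch near Slc22a28: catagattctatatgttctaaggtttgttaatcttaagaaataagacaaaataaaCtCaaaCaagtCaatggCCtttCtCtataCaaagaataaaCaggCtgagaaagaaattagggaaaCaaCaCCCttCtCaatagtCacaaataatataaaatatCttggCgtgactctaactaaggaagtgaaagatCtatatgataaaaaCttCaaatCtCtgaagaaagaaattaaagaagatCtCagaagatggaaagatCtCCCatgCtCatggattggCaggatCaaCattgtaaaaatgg
4930486F22Rik window, chr10:86095604-86095705, minus strand, against the 30-site stretch near AW046200: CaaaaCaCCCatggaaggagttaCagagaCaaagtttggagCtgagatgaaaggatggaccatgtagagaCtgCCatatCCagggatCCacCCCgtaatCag
Gm34353 window, chr1:137993802-137993884, plus strand, against the 28-site stretch near Ccr1l1: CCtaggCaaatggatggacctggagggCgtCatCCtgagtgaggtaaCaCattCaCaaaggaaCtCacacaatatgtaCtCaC
Fut8 window, chr12:77388614-77388751, minus strand, against the 27-site stretch near Gm4759: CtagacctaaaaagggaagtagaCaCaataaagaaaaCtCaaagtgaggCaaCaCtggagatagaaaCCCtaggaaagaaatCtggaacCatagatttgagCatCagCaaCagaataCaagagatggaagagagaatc

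A high share of coinciding cytosines was part of the rule for a match, so the counts describe the part of each window that lay over a stretch, which is the part printed. In the Gm36789 window, 37 of 46 cytosines coincided with sites of the stretch near Slc22a28, which has 41 sites over those 300 bases, while the next window in rank reached 46.9% against 74.0% of the union. In the 102 bases of the 4930486F22Rik window 19 of 22 cytosines coincided, out of 20 sites. The Gm34353 window gave 16 of 20 cytosines and all 16 sites over 83 bases, and the Fut8 window 18 of 22 cytosines out of 22 sites over 138 bases. Few of the coinciding cytosines were followed by G: 1 of 37 in the Gm36789 window, 1 of 19 in the 4930486F22Rik window, 1 of 16 in the Gm34353 window and 0 of 18 in the Fut8 window. In the Gm36789 window 16 were followed by A, 15 by T and 5 by C. The printed sequences themselves held few such dinucleotides, with 1 cytosine followed by G in each of the first 3 and 0 in that of Fut8. The remaining 4 matches were 3 further windows, of Gm33586, Gm34861 and Gm33067, with the stretch near AW046200, and the Gm36789 window with the 88-site stretch near Gm40656 (17 coinciding cytosines of 27, out of 18 sites). A coincidence of spacing describes a likeness and does not show where the reads came from.

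A match also gives a strand, since the sites must be cytosines. By this reading, the matched sites of the 94-site stretch near Slc22a28 and of the stretch near AW046200 were on the plus strand. Those of the stretches near Ccr1l1 and Gm4759 were on the minus strand. Among the other stretches of the locus near Slc22a28, the 25-site stretch had no matching window. The 14-site stretch there had too few sites to match, and the single sites at either end were not compared. The 88-site stretch near Gm40656 would also read as the minus strand, from a match that was only just past the threshold: it covered 18 of the 88 sites and reached 60.7% of the union. Gm40656 itself is annotated on the plus strand. The nearest protein-coding gene there is Akr1c12, an aldo-keto reductase on the minus strand, whose span ends 6626 bases from the stretch, on its downstream side.

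The same spacing recurred among listed stretches. Of 3082 pairs of stretches of 10 or more sites with at least 1 member stretch, 13 (0.422%) matched by the same thresholds, and they involved 9 of the 23 member stretches, with 546 sites. Among the other 7503 pairs 30 (0.4%) matched, so the share was near that of stretches inside genes and in the chromosome 6 window. Pairs with a stretch of fewer than 15 sites are counted in these totals but could not match. No 2 member stretches matched each other by these thresholds, though some shared a partner, as with Rab27b below. The partner lay in a gene in 12 pairs and in the chromosome 6 window in 1. In 8 pairs the partner ran in the opposite orientation and in 5 in the same orientation.

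The longest match was between the 60-site stretch near Mir5103 and Il1rl1, which encodes the mast cell receptor of IL-33. Over 455 bases, 51 of the 60 sites coincided with Il1rl1 sites between 40456096 and 40456510 on chromosome 1, in the opposite orientation, while the next best placement gave 19. Mean levels at these positions were 23.4% ± 0.841 and 25.5% ± 0.124 (SD, n = 2 for both). The libraries did not put them in a constant order: the member sites minus Il1rl1 stood at -7.32 and 1.65 points in the libraries of replicate 1 and at 1.32 and -4.25 points in replicate 2. Part of the same stretch also coincided with sites of Inpp4b, a phosphoinositide phosphatase, and of Angpt1, the angiopoietin-1 ligand of Tie2. Levels there were far apart: the 23 positions shared with Inpp4b stood at 19.8% ± 0.616 against 48.4% ± 17.3, and the 21 shared with Angpt1 at 27.8% ± 1.36 against 71.9% ± 2.03 (SD, n = 2 for each). The member sites were lower than either partner in all 4 libraries.

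A second group of matches joined Rab27b, a GTPase of secretory granule release, to 3 member stretches. Of 45 sites near Slc22a28, 44 coincided with Rab27b sites over 329 bases of the opposite orientation, where Rab27b has 64 sites. The 44 member sites stood at 79.3% ± 1.16 against 91.6% ± 1.82 in Rab27b (SD, n = 2 for both), with differences from -15.4 to -5.17 points in the 4 libraries.
Of 32 sites near Gm32412, 31 coincided with Rab27b sites over 129 bases, at 76.2% ± 9.64 against 94.6% ± 2.37 (SD, n = 2 for both). All 18 sites at the start of the 88-site stretch near Gm40656 coincided with Rab27b sites too, at 51.1% ± 12.02 against 88.2% ± 3.60 (SD, n = 2 for both). Rab27b has 25 sites over those bases. In each of these 3 pairs the member sites were lower than Rab27b in every library. The Rab27b positions matched by the stretch near Slc22a28, chr18:70009613-70009896, overlapped those of both others. These were 70009568-70009696 for Gm32412 and 70009772-70009880 for Gm40656.

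The other matches were shorter. The stretch near Gm32412 shared 15 positions with Dgkd, a diacylglycerol kinase, at 79.0% ± 9.57 against 54.8% ± 5.46 (SD, n = 2 for both). The 88-site stretch near Gm40656 shared 20 positions with a second Inpp4b stretch, at 77.4% ± 5.41 against 95.3% ± 3.27. The 25-site stretch near Slc22a28 shared 22 of its 25 sites with the long noncoding RNA 4933406I18Rik, at 86.3% ± 6.89 against 83.1% ± 11.6 (SD, n = 2 for each); the difference was 17.1 and 15.5 points in replicate 1 and -11.3 and -8.39 points in replicate 2. The 47-site stretch near Mir5103 shared 20 positions with the olfactory receptor gene Olfr1033, at 56.3% ± 7.40 against 51.5% ± 20.5 (SD, n = 2 for both), with differences from -29.2 to 30.9 points in the libraries. The stretch near Scin coincided at 20 positions with the zinc finger gene Zfp369, and the stretch near Gm16386 at 15 with the zinc finger gene Zfp984. Levels were 23.3% ± 1.04 against 32.3% ± 1.45 in the first of these and 82.9% ± 9.66 against 40.9% ± 3.33 in the second (SD, n = 2 for each). The stretch near Gm4759 shared 15 positions with a stretch of the chromosome 6 window, at 30.9% ± 3.88 against 32.9% ± 2.32 (SD, n = 2 for both). Mean levels at shared positions lay within 5 points of each other in 4 of the 13 pairs and more than 8 points apart in the other 9. Reads of alike copies can be assigned to either place, and how the authors treated such reads is not given in the sources used here, so the levels of these stretches are uncertain.

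**Figure D1:**
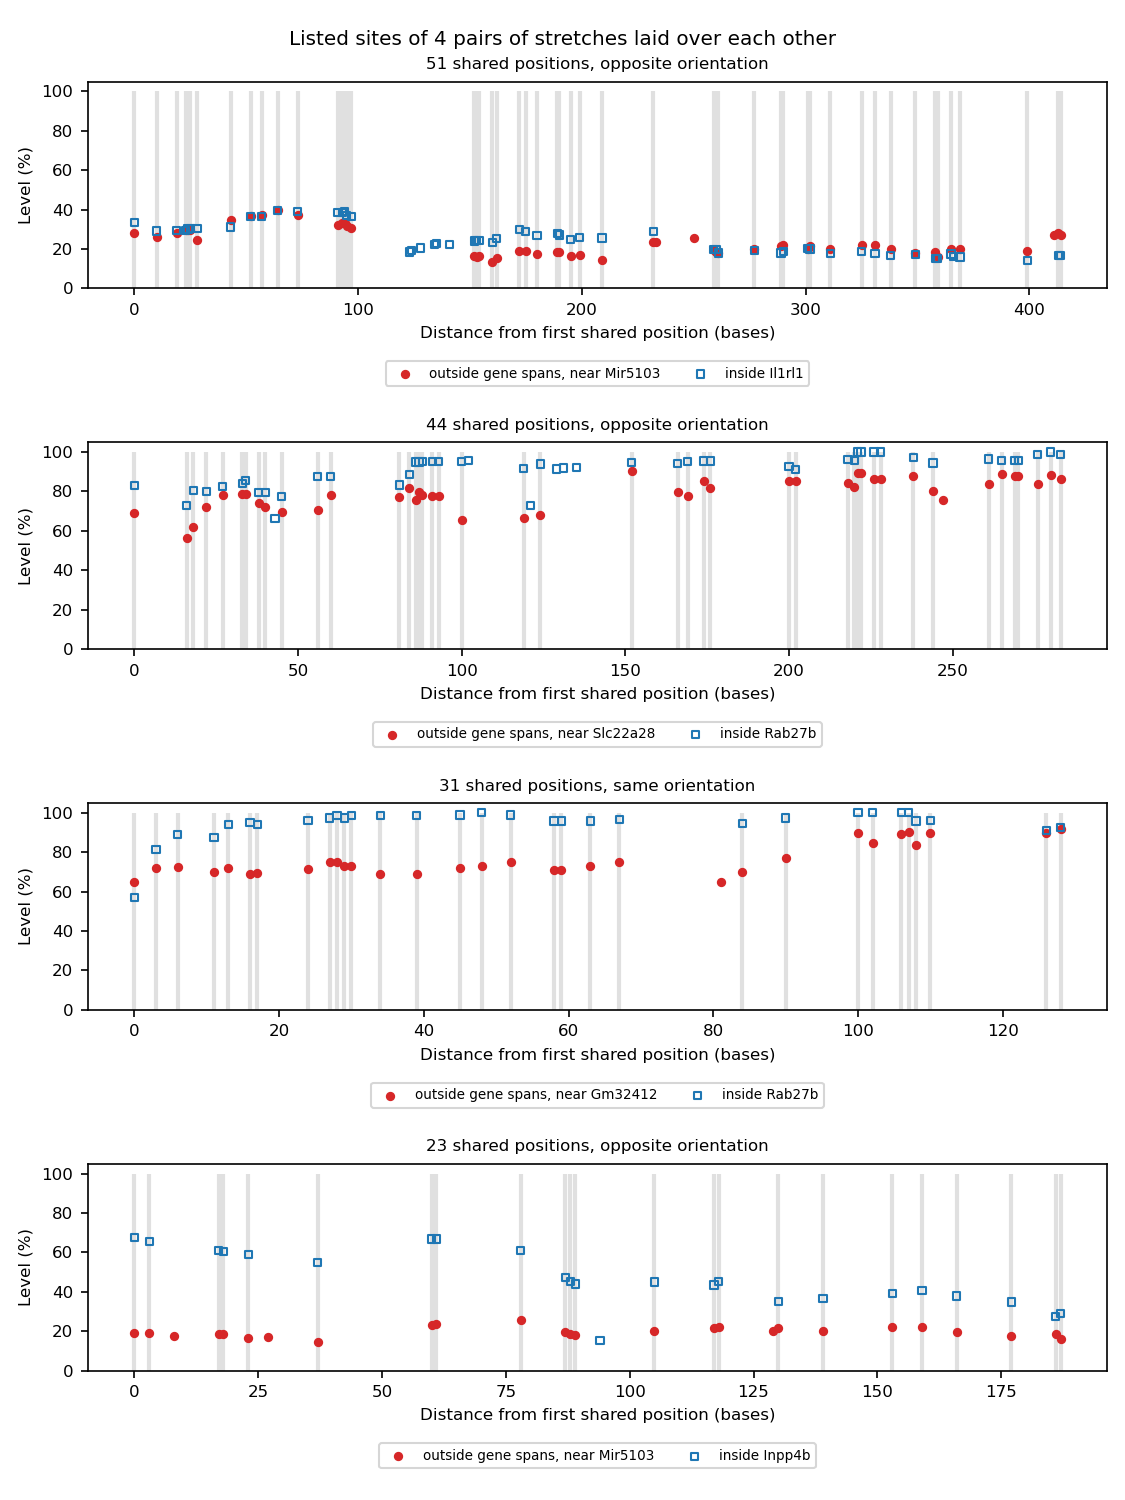
Level in percent (vertical axis, mean of 4 libraries) of listed sites against distance in bases from the first shared position, for the 4 pairs with the most shared positions; red points are sites outside gene spans, open blue squares sites of the gene, and grey bars shared positions. The 51 positions shared with Il1rl1 stood at 23.4% and 25.5%, while those near Slc22a28 lay below Rab27b.

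Over all members, levels were spread widely. Averaged over the 993 sites, the level was 49.3% and 43.2% in the technical libraries of replicate 1 and 45.4% and 47.4% in replicate 2, which gave 46.4% ± 0.105 (SD, n = 2). Technical libraries of a replicate differed by more than the means of the biological replicates did. Each of those means averages 2 libraries, so these gaps are not alike measures. The SD also rests on how the column names were read, which cannot be settled from the values. Read the other way round, 49.3% and 45.4% would be paired against 43.2% and 47.4%, with a larger SD. Site means ran from 10.8% to 100%, with a median of 38.3% and the middle 50% between 23.0% and 71.9%. Every library read 50% or more at 298 sites (30%), against 35% of sites inside gene spans, 28.1% in the chromosome 6 window and 33.6% of all listed sites. Every library read under 20% at 70 sites (7.05%), against 1.53%, 3.77% and 2.45%. Of those 70, 30 lay in the 84-site stretch near Gm40656, 12 in the 48-site stretch near Gm18969 and 9 in the 60-site stretch near Mir5103. At 3 sites (0.302%) every library read 100%, against 1.05% of sites inside gene spans and 0.836% of all listed sites.

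Counted by site, members were lower than the 6464 sites inside gene spans, whose mean was 53.2% ± 0.194 (SD, n = 2). The difference was -5.76 and -7.89 points in replicate 1 and -5.99 and -7.91 points in replicate 2, a mean of -6.89 ± 0.0895 points (SD, n = 2). It was negative in all 4 libraries. This SD rests on the reading of the column names, which cannot be settled from the values. Read the other way round, -5.76 and -5.99 points would form 1 replicate and -7.89 and -7.91 points the other. The SD would then be larger. No test was run, since an exact sign-flip permutation test over the 2 biological replicates cannot give a p below 0.5. With each stretch counted once the sign turned, to 45.0% for the 35 member stretches against 41.7% for the 210 stretches inside genes, and the medians of stretches stood at 35.6% and 37.3%. The 1035 sites outside genes in the chromosome 6 window averaged 47.5% ± 0.0488 (SD, n = 2).

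**Figure D2:**
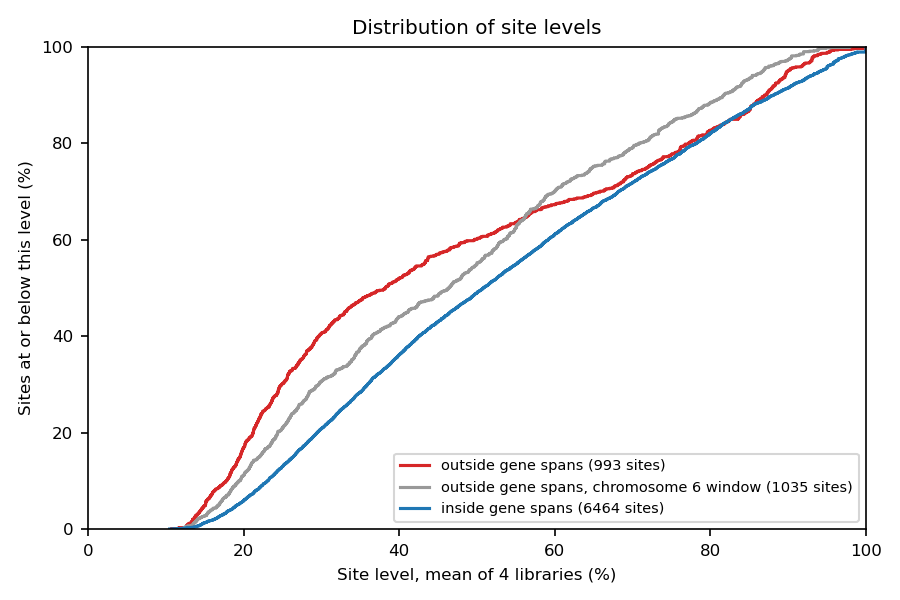
Cumulative share of sites in percent (vertical axis) at or below a site level in percent (horizontal axis, mean of 4 libraries) for sites outside gene spans, in the chromosome 6 window and inside gene spans. The red curve of the 993 member sites lies highest at low levels, with a median of 38.3% against 50.8% inside genes.

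Sites crowded together. The 35 stretches covered 12597 bases on 13 chromosomes, and 23 of them had 10 or more sites and held 946 sites (95.3%). The 10 with the most sites held 688 (69.3%), while 7 stretches had 2 to 9 sites and 5 were a single site. Another listed site lay within 10 bases of 928 members (93.5%), close to 93.6% inside gene spans. Neighbours read alike: cytosines 1 base apart differed by 2.01 points on average (189 pairs), those 3 to 10 bases apart by 3.59 points, those 51 to 150 bases apart by 11.3 points and those further apart, up to 500 bases, by 19.8 points. Inside gene spans these differences were 2.72, 5.72, 13.2 and 17.4 points. Neighbouring sites share reads, so these pairs are not independent.

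Stretch levels covered most of the scale. Among the 23 stretches of 10 or more sites, 6 were under 30%, 11 between 30% and 70%, and 6 at 70% or more, with 255 and 167 sites in the low and the high class. Stretches up to 10 kb apart formed 22 loci, and within a locus neighbouring stretches could stand far apart.

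The high class came first in level with the 51-site stretch near Gm32412, at chr4:31895569-31895809, whose libraries read 90.5% and 86.0% in replicate 1 and 87.5% and 88.9% in replicate 2, a mean of 88.2% ± 0.0350 (SD, n = 2). All 51 of its sites were at 50% or more in every library, and 2 neighbouring cytosines, at 31895572 and 31895573, read 100% throughout. Gm32412 lay 62250 bases from this stretch. The nearest protein-coding gene is Map3k7, the kinase TAK1 of inflammatory signalling, 67683 bases away. The 25-site stretch near Slc22a28, at chr19:8026579-8026682, read 93.1%, 88.5%, 79.5% and 82.7%, so that the libraries of replicate 1 lay above those of replicate 2. The 19-site stretch near Gm16386, at chr17:22825556-22825817, read 86.4%, 70.5%, 97.6% and 84.8%, and its biological replicates overlapped.

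Chemokine receptors flank the next pair. The 14-site stretch at chr9:124008068-124008151 lay 9674 bases upstream of Ccr3, the eotaxin receptor, and read 75.7% and 81.4% in replicate 1 and 86.4% and 85.0% in replicate 2, which did not overlap. The 28-site stretch at chr9:124002056-124002313 lay 15341 bases upstream of Ccr1l1, a relative of the chemokine receptor Ccr1, and read 78.8%, 80.2%, 82.1% and 79.3%. Their means, 82.1% ± 5.07 and 80.1% ± 0.914 (SD, n = 2 for both), differed by less than the SD of the first. The last of the high class was the 30-site stretch at chr8:57682007-57682266, 18577 bases downstream of the long noncoding RNA AW046200, at 68.4%, 73.5%, 67.1% and 75.7%.

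The low class included stretches close to protein-coding genes. The 15-site stretch at chr7:47980622-47980693 lay 101 bases downstream of Mrgpra4, a member of the Mas-related G protein-coupled receptors. It had the lowest level of the class, 19.3% and 22.8% in replicate 1 and 16.2% and 22.0% in replicate 2, a mean of 20.1% ± 1.36 (SD, n = 2), and the 1 site with no other within 10 bases stood at 12.7%. The 29-site stretch at chr2:5019814-5019958 lay 563 bases downstream of Optn, an autophagy receptor, and read 21.6%, 25.3%, 22.3% and 23.0%. In both stretches the replicates overlapped.
The 84-site stretch at chr13:4258994-4259796, 533 bases from Gm40656, read 23.1%, 16.3%, 16.8% and 24.7%. The 60-site stretch at chr1:34420165-34420619, 12502 bases from Mir5103, read 26.4%, 22.8%, 24.6% and 27.8%. The other low stretches were part of a locus that spanned 10000 bases of chromosome 1 from 101881177 to 101891176, 126634 to 136362 bases from the nearest gene, the pseudogene Gm18969. Its 5 stretches held 92 sites at means from 21.2% to 34.2%, none of which was at 50% or more in every library.

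**Figure D3:**
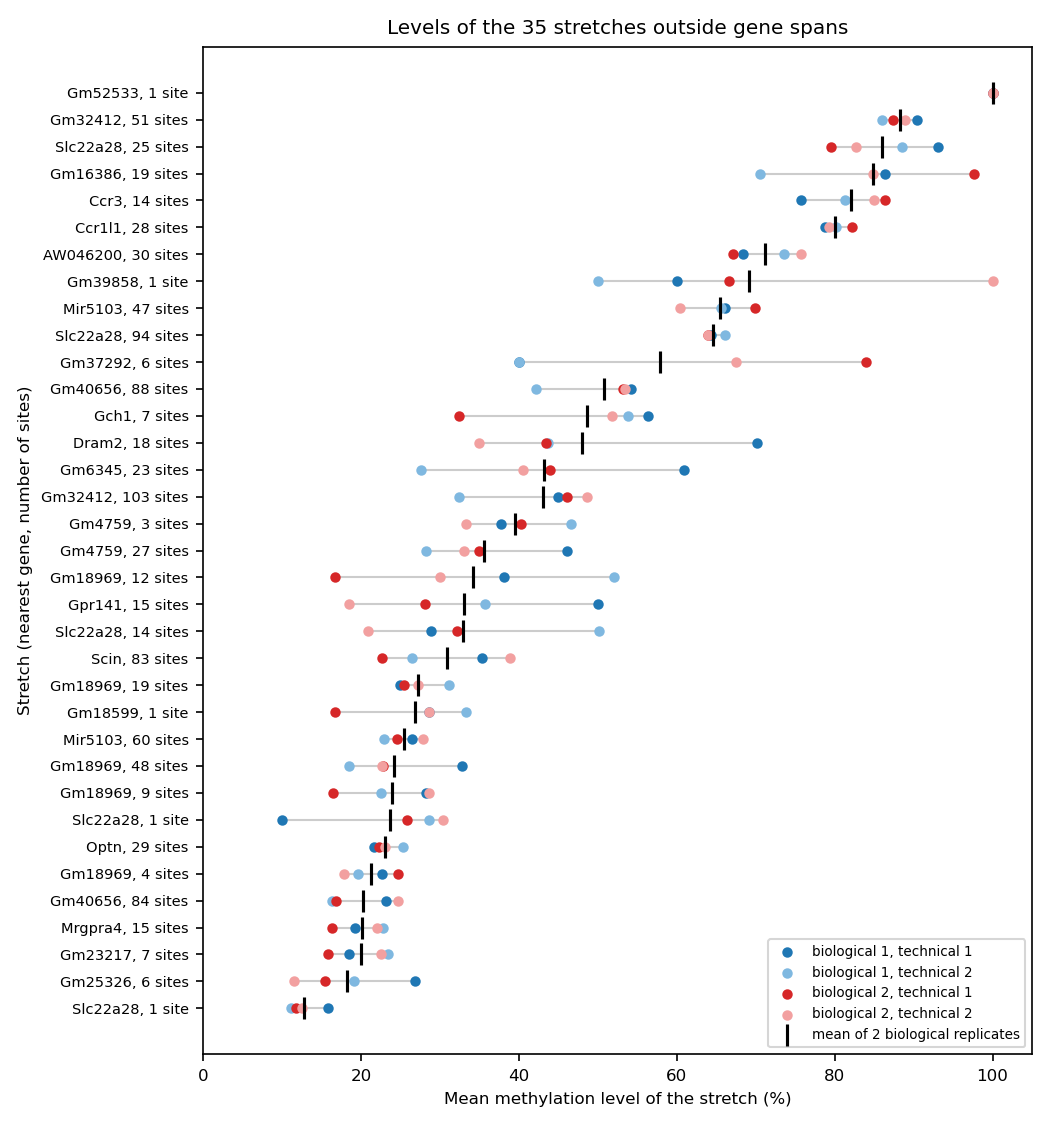
Mean level in percent (horizontal axis) of the 35 stretches, named by nearest gene and number of sites; blue points are the technical libraries of biological replicate 1, red points those of replicate 2 and the black tick their mean. Levels run from 12.8% for a single site near Slc22a28 to 100% for a single site near Gm52533.

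Within the largest loci the level changed with position along the chromosome. Whether the sites of a locus lie on the same RNA was not tested. At the locus near Gm32412 (154 sites), the level was 18.2% ± 3.33 in the first 200 bases of the 103-site stretch (10 sites). It rose to 70.7% ± 12.3 at 1401 to 1600 bases (27 sites) and 88.7% ± 0.735 in the last bin (8 sites), and the next stretch stood at 88.2%. The end of the 103-site stretch, chr4:31894576-31894704, is the part whose spacing coincided with Rab27b, so levels there are uncertain. That 103-site stretch read 44.9%, 32.5%, 46.0% and 48.6% as a whole, a mean of 43.0%, while its 12 sites with no other listed site within 10 bases averaged 18.9%. Those 12 sites all lay between 31893114 and 31894278, before the bins of 70.7% and 88.7%. Isolation and place along the stretch therefore cannot be told apart here. Near Gm40656, the 84-site stretch stood between 14.6% and 38.4% in bins of 200 bases. The 88-site stretch beside it, at chr13:4260705-4261546, ranged from 20.9% ± 4.71 (11 sites) to 86.1% ± 5.80 (17 sites). Its positions shared with Inpp4b, at chr13:4261454-4261541, lay partly in the bin of 86.1%, so that level is uncertain too. At the locus near Slc22a28, a member of the organic anion transporter family, the 94-site stretch at chr19:8027724-8029284 lay 32674 bases from that gene. The stretch stood at 91.0% ± 11.1 in its first 200 bases (12 sites) and at 28.3% ± 4.45 in its last bin (21 sites). The fall was not steady, with 67.8% ± 9.86 at 201 to 400 bases (5 sites) and 85.0% ± 2.80 at 801 to 1000 bases (23 sites). As a whole the stretch read 64.3%, 66.1%, 64.0% and 64.0% (SD, n = 2 for each bin). Its positions at chr19:8028392-8028675 coincided in spacing with Rab27b, so levels there are uncertain. A 14-site stretch of that locus read 28.8%, 50.1%, 32.1% and 20.8%, a mean of 33.0% against 16.8% over its 2 isolated sites, and single sites at either end stood at 23.7% and 12.8%. Near Mir5103 the 47-site stretch at chr1:34421840-34422092 read 66.1%, 65.6%, 69.9% and 60.4%, above every library of the 60-site stretch beside it. Scin, an actin-severing protein, has 83 sites at chr12:40057497-40058726, 1043 bases downstream of its span. They read 35.3%, 26.5%, 22.6% and 38.9%, with a peak of 43.3% ± 4.88 at 401 to 600 bases (11 sites) and 22.4% ± 0.375 at 1001 to 1200 bases (28 sites; SD, n = 2 for both).

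**Figure D4:**
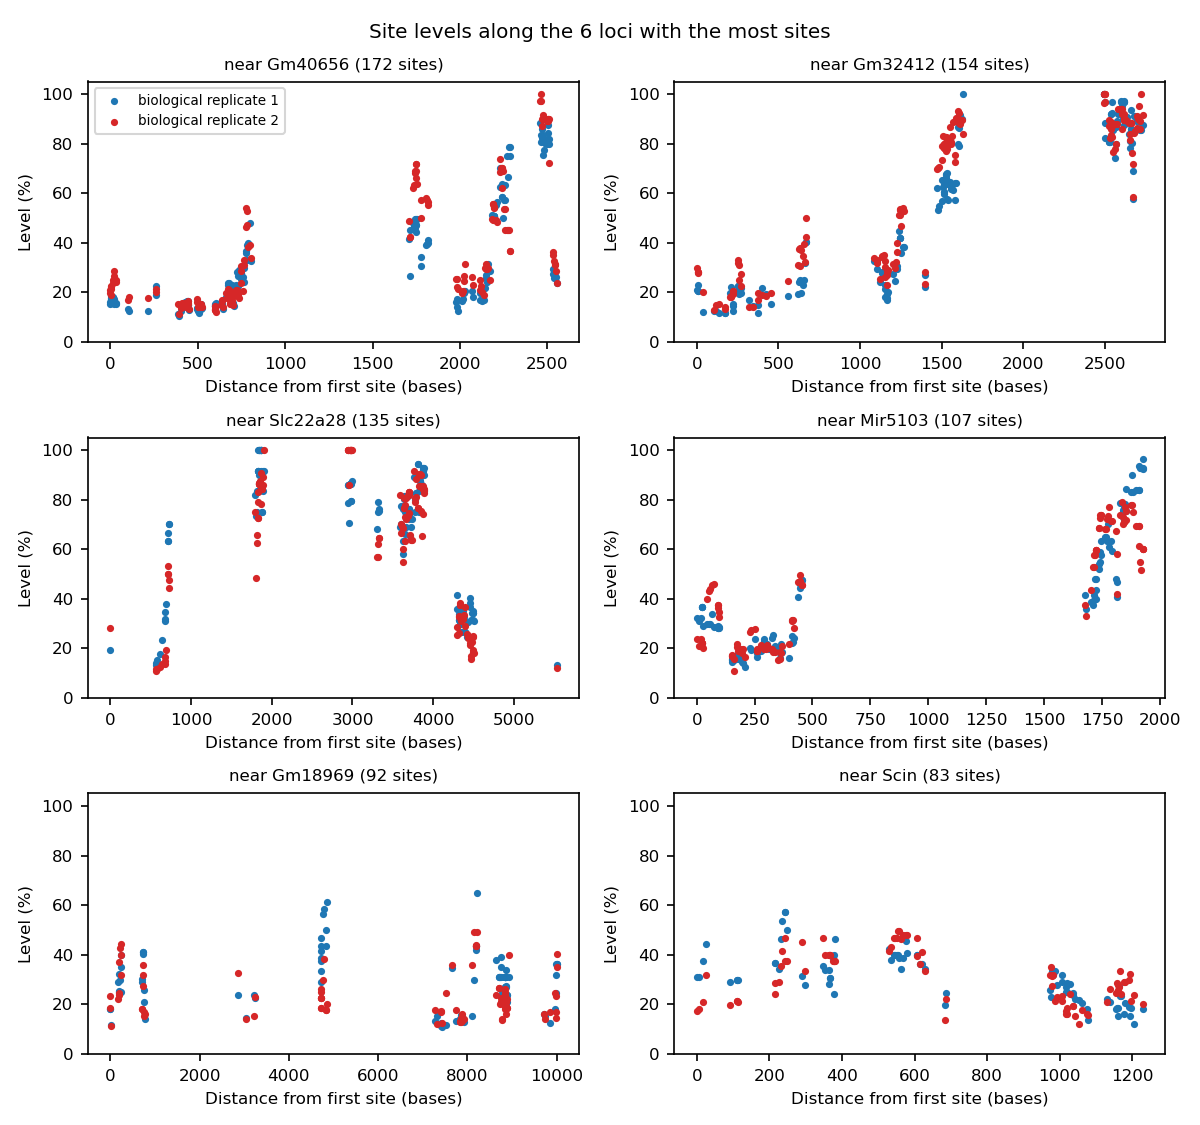
Site level in percent (vertical axis) against distance in bases from the first site (horizontal axis) for the 6 loci with the most sites; blue and red points are the means of biological replicates 1 and 2. The level climbs along the locus near Gm32412, from 18.2% in the first bin to 88.7% in the last bin of its 103-site stretch. The end of that stretch coincided in spacing with Rab27b sites, so its levels are uncertain.

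Where the strand of the nearest gene was given, stretches close to it lay beyond its end. The nearest gene was protein-coding for 13 stretches, a pseudogene for 10, a long noncoding RNA for 8, and a small RNA gene for 4. Of 35 stretches, 12, with 382 sites, lay within 5 kb of a gene span; 9 of them were downstream, 0 upstream, and for 3 the strand of the gene was not given. Within 50 kb, 15 stretches were downstream, 3 upstream and 10 without a strand. The 9 within 5 kb include both stretches near Gm40656, 6 sites near Gm37292 and the single site near Gm39858. The share for stretches of the chromosome 6 window was not worked out. No member lay in a RefSeq promoter window, and no member stretch had a listed gene site within 500 bases. The first of these counts was partly fixed by the rule, since members lie in no gene span and each window reaches into its gene. The share of other listed sites in promoter windows was not worked out. The libraries were strand-specific per the labels, but the strand of the sites is not in the table, so whether they continue the transcript of that gene was not tested. Of these 9 stretches, the spacing gave a strand for 1, the 88-site stretch near Gm40656, and that weak match reads opposite to the gene. Of the genes within 5 kb, 5 were protein-coding: Mrgpra4, Optn, Scin, Dram2, a lysosomal protein of the autophagy pathway, and Gch1, the first enzyme of tetrahydrobiopterin synthesis.
The 18-site stretch at chr3:106576311-106576566, 970 bases downstream of Dram2, read 70.2% and 43.7% in replicate 1 and 43.4% and 34.9% in replicate 2. The 7 sites at chr14:47152443-47152556, 1339 bases downstream of Gch1, read 56.3%, 53.8%, 32.4% and 51.8%. In these stretches the libraries of replicate 1 lay above those of replicate 2, narrowly so near Dram2, at 43.7% against 43.4%.

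The other stretches within 5 kb were the pair near Gm40656, 27 sites near Gm4759 at 35.6%, 23 sites near Gm6345 at 43.2%, 6 sites near Gm37292, and the single sites near Gm39858 and Gm52533. The site near Gm52533, at 151528451 on chromosome 2, read 100% in all 4 libraries. The site near Gm39858 read 60%, 50%, 66.7% and 100%. Away from genes, 7 sites near Gm23217 stood at 20.02%, 6 near Gm25326 at 18.2%, 3 near Gm4759 at 39.5% and 1 near Gm18599 at 26.8%. None of 13 genes of RNA cytosine methylation and TET oxidation, of 40 mast cell genes or of 23 genes of IL-3, SCF and JAK-STAT signalling was the nearest gene, or the nearest protein-coding gene, of a stretch. The stretches had only 23 distinct nearest genes. The share to be expected from the whole annotation was not worked out, so this absence is not a result about these genes. The table holds no expression values, so the labelled cell type was not checked against its markers.

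**Figure D5:**
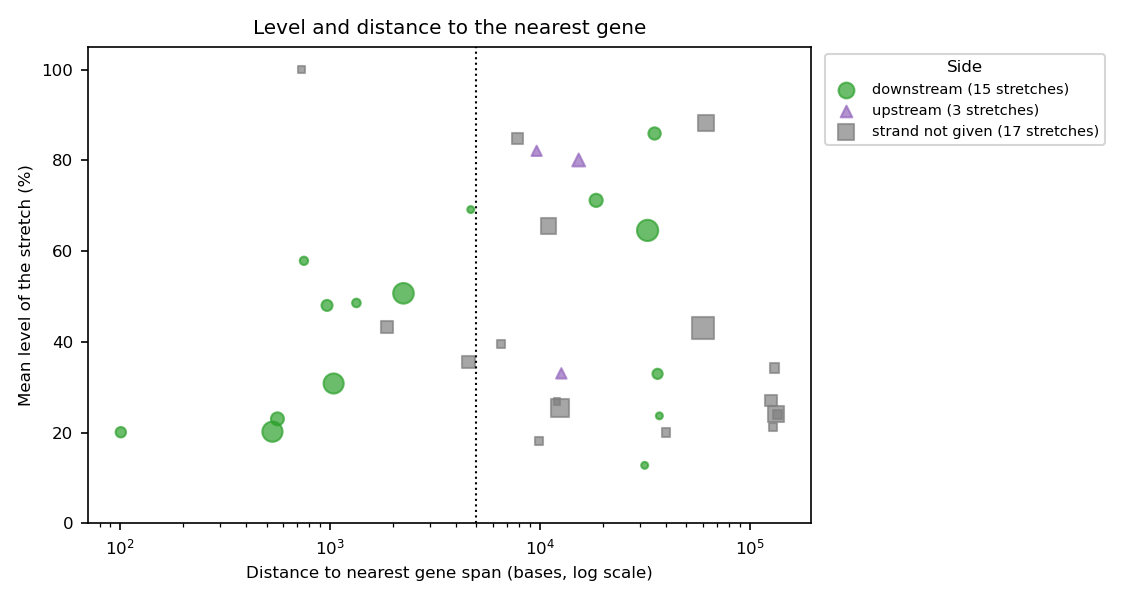
Mean level of each stretch in percent (vertical axis) against the distance to the nearest gene span in bases (horizontal log axis); symbols give the side of the gene and grow with the number of sites, and the dotted line marks 5 kb. All 9 stretches within 5 kb of a gene whose strand was given lie downstream.

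Replicates differed more in some stretches than in others. Over the 35 stretches, the means of the biological replicates differed by 7.13 points on average and technical libraries by 7.98 points. The first gap is between averages of 2 libraries and the second between single libraries, so they are not alike measures. Compared site by site, single libraries of different biological replicates differed by 12.4 points on average. Technical libraries of the same replicate differed by 12.2 points. The replicates' libraries did not overlap in 11 stretches (31.4%), near the 33.3% of stretches inside gene spans, 28.6% in the chromosome 6 window and 32.8% of all 259 listed stretches. Among stretches of 10 or more sites the median gap was 2.01 points, and the widest was in the 12-site stretch of the locus near Gm18969, at 38.1% and 52.1% in replicate 1 against 16.7% and 29.95% in replicate 2. The 15-site stretch at chr13:19837018-19837098, 12682 bases upstream of the orphan receptor Gpr141, read 50.03% and 35.6% against 28.1% and 18.5%. Dram2 followed with a gap of 17.8 points. Of all stretches, the 6 sites near Gm37292 had the widest gap, 40% and 40% against 84.0% and 67.5%. Read the other way round, with the last number of each column name as the biological replicate, the gaps became 13.6 points near Gm18969, 12.01 near Gpr141, 17.5 for Dram2 and 8.28 near Gm37292. Which of the readings is right cannot be settled from the values.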

How the data were processed

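The deposited table gives, per the file headers, a methylation rate per site as a fraction, converted here to percent. Per the labels' protocols, DNase-treated poly(A) RNA was bisulfite converted with unmethylated lambda RNA as a control. The submitters' processing notes name mm10 and GRCm38; aligner, caller, coverage minimum, conversion rate and site selection: not given in the sources used here. Column names were read as biological, then technical, replicate number. Technical replicates were averaged, and SDs are over 2 biological replicates. Every SD, and every value with a replicate left out, rests on this reading of the column names. Positions were compared with RefSeq gene spans; strand came from the promoter table. No test was run: wild-type levels were not analysed here, and an exact permutation test over 2 replicates cannot go below p = 0.5. Stretches given by the fixed rule are the 10 with the most sites and, among those of 10 or more sites, the 5 highest, the 5 lowest and the 5 with the widest replicate gap; others were chosen after their values were seen. Members and lists were chosen with earlier results of these data known. The spacing comparison and its thresholds were chosen after the data were seen; the search was tested on simulated data. Python 3.11.15, numpy 2.4.6, pandas 2.3.3 and matplotlib 3.10.9 were used.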

Additional observations from a re-analysis of the deposited data

Results flagged for a closer look

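Levels were searched for a library that stands apart from the other 3 of its group. This was so for 2 of 35 levels. These were the mean over all members and each stretch whose libraries were not all equal, which left out the site near Gm52533. Chance gives about 1 in 20 for independent libraries, and technical libraries of a replicate are not independent. In the 88-site stretch near Gm40656, technical replicate 2 of biological replicate 1 read 42.1%, and the rest 53.1% to 54.2%; its gap to the nearest was 0.913 of the range. In the 94-site stretch near Slc22a28 the same library read 66.1% against 64.0% to 64.3%, a gap of 0.849 of a narrow range. No cause was tested for either.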

How the results depend on the processing

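The count of 993 sites became 1858 with spans of protein-coding genes only, 581 at 20% or more in every library and 2028 with the chromosome 6 window kept; with spans extended by 1 kb it was 909. The mean level of 46.4% became 45.0% with each stretch counted once, 32.7% without sites that have another within 10 bases, 63.3% at 20% or more in every library, 38.3% as a median, 46.9% with the chromosome 6 window and 47.3% without the 10 largest stretches; with a replicate left out it ran from 46.3% to 46.4%. The 35 stretches became 58 when sites up to 100 bases apart were joined. The difference to sites inside gene spans, -6.89 points, turned to 3.31 points with each stretch counted once; it was -7.69 points without clustered sites, -1.83 with protein-coding spans only, -6.29 with the chromosome 6 window and -6.95 to -6.82 with a replicate left out. The mean replicate gap of 7.13 points was 6.08 with the column names read the other way and 5.85 in stretches of 10 or more sites. Stretches near a gene numbered 6 within 1 kb and 5 within 5 kb of a protein-coding gene. At 70% of the union in place of 60%, 5 stretches and 7 pairs shared a spacing, and at 50% there were 21 pairs. The cause of these changes was not tested. Of the 20 stretches named by rule, 12 moved by more than their SD when sites with another within 10 bases were left out, 1 did not, and in 7 every site had such a neighbour. No paired analysis was possible because 1 genotype alone has values here. Precision from depth cannot be given.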

Other observations

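Short gaps were about as common among members as inside gene spans. Of the 958 gaps between neighbouring member sites up to 500 bases apart, 189 (19.7%) were 1 base and 135 (14.1%) were 2 bases, against 23.1% and 13.3% inside gene spans. The stretches with the highest shares of 2-base gaps, picked after these shares were seen, were the 7 sites near Gm23217 with 4 of 6 gaps and the 25-site stretch near Slc22a28 with 10 of 24. The 65 members with no other listed site within 10 bases averaged 32.7%.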
